A study of Mus musculus with 3 samples.

Results

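Of 55946 merged ATAC-seq regions on chromosomes 1 to 19, 4176 (7.46%, Wilson 95% interval 7.25 to 7.69) were open in polyclonal CD4+ T cells and held no peak in either fraction of CBir1 T cells. These regions were chosen from the peak calls themselves: peaks of the 3 lists that shared at least 1 bp were merged, and a region was kept if it held a polyclonal peak and no peak of divided or undivided CBir1 cells. The members' presence in the polyclonal list and absence from the other lists is therefore the choice and not a finding. Regions open in divided cells alone numbered 7992 (14.3%) and in undivided cells alone 3486 (6.23%). ATAC-seq marks open chromatin by the insertion of adapters by a transposase, and a peak is a stretch where more fragments piled up than in the local background.

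All cells came from the colon-draining mesenteric lymph nodes of 4 wild-type C57BL/6J recipients. These mice had received naive CD4+ T cells from the spleen of CBir1 transgenic mice, whose T cell receptor recognises a bacterial flagellin, stained with the division dye CellTrace Violet. From the day after transfer every recipient drank 2% dextran sulfate sodium (DSS) for 7 days, and FTY720, a drug that holds lymphocytes in lymph nodes, was given at 1 mg/kg on days 7, 10 and 13, with harvest on day 14 counted from the start of DSS. The divided fraction was CBir1 cells with diluted dye, the undivided fraction CBir1 cells with bright dye, and the polyclonal fraction all endogenous non-CBir1 CD4+ cells of the same hosts. Ages are not stated in the labels. Cells of 2 mice were pooled, in 2 pools per fraction, and 1 peak list per fraction was analysed here, so replicates could not be compared and fractions were set side by side without a test. Every group carries the DSS and FTY720 treatment, and the polyclonal cells differ from the CBir1 cells in receptor, in transfer and in their mixture of subsets, which cannot be told apart.

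The 3 lists held 46764 divided, 40781 undivided and 43327 polyclonal peaks on these chromosomes. Judged by the lowest local background, the divided library was 1.40 times and the undivided library 0.933 times as deep as the polyclonal library. The T cell label was checked at the promoters of 8 T cell identity genes, including Cd3e, Cd5, Lck and Zap70, which were open in 8 of 8 cases in every library, with summed summit pileups of 1159 fragments in divided cells, 1037 in undivided cells and 1058 in polyclonal cells. None of the epithelial, stromal or erythroid marker promoters that could be looked up held a peak in any library, while 1 of 9 B cell marker promoters (Cr2) did in every library. A further B cell promoter, that of Fcer2a, had 5 fragments in polyclonal cells alone and is itself a member, fixed by the choice of regions. Summed pileups over the B cell promoters were 30, 26 and 23 fragments in polyclonal, divided and undivided cells. In the same order, those over the myeloid promoters were 115, 93 and 97. Those over the CD8 T cell promoters were 139, 155 and 206, all from Prf1 and Runx3, with no peak at Cd8a, Eomes or Gzmk. The dendritic cell promoters gave 170, 222 and 139, from Bst2 and Irf8, with 9 fragments at Flt3 in undivided cells alone.

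The endogenous CD4+ compartment of a draining lymph node is a mixture. It holds naive cells, regulatory T cells that restrain inflammation, follicular helper cells that assist B cells, and memory and effector cells of several helper types, each with receptors built by recombination of V, D and J segments. Monoclonal transferred cells lack that variety of receptors. In a sorted pool, a site open in few cells and a site weakly open in many cannot be told apart.

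Few of these regions lay on gene starts. Of 31396 promoter windows, each the 250 bases before to 50 bases after a RefSeq start, 117 overlapped a region open in polyclonal cells alone. These windows touched 103 members, and 109 of the windows (0.347% of all windows) overlapped no other kind of region. Summits lay within 500 bp of a start in 3.68% (3.15 to 4.31) of members. The share was 4.15% (3.73 to 4.62) in divided-alone and 3.16% (2.62 to 3.81) in undivided-alone regions. The bases upstream of the start are printed for the 8 named protein-coding genes with the highest polyclonal −log10 q and at least 100 bases of overlap, with unnamed gene models left out, because these windows hold the strongest starts in the set. They are RefSeq sequence of build GRCm38.p6, 5′ to 3′ on the gene's strand, from 250 bases before the start up to the start. A printed stretch can reach beyond the open region. Capitals mark the letters AGGAAG (a core that ETS factors of lymphoid cells bind), TGTGGT (RUNX), GGGCGG (SP and KLF factors) and GAAANNGAA (interferon regulatory factors), searched on both strands.
Cd53: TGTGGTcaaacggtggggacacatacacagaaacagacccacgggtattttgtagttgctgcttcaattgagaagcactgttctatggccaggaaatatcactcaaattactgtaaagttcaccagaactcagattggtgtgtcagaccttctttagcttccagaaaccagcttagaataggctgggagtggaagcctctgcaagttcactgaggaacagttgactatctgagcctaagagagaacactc
Ccdc39: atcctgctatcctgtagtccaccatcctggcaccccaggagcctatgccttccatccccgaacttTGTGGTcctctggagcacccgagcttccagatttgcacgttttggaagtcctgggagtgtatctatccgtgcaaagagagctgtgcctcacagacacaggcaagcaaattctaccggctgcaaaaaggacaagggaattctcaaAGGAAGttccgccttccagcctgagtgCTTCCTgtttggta
Henmt1: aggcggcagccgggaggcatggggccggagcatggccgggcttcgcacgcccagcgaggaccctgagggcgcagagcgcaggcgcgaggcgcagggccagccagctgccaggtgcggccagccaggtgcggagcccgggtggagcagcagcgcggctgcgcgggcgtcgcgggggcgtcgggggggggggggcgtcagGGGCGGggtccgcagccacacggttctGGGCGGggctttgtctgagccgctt
Myadm: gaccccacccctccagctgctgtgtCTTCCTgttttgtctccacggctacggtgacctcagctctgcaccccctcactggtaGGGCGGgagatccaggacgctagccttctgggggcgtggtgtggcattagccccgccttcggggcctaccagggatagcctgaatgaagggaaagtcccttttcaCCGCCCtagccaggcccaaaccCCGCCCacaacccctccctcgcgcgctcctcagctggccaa
Isg15: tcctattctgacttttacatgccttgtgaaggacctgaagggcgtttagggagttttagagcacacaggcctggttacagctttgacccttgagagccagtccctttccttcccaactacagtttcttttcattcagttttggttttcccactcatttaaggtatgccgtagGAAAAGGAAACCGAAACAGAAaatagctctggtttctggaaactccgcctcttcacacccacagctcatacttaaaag
Wnt3: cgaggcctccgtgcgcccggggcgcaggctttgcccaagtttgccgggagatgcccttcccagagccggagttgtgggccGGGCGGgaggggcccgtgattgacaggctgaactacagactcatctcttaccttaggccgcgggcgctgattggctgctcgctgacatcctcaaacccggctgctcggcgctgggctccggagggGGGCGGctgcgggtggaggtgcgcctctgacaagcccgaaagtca
Ucp3: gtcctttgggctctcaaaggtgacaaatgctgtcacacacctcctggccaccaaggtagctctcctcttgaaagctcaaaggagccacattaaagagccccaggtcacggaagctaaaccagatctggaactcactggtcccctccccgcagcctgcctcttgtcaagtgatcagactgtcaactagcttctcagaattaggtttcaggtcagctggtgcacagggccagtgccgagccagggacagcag
Hopx: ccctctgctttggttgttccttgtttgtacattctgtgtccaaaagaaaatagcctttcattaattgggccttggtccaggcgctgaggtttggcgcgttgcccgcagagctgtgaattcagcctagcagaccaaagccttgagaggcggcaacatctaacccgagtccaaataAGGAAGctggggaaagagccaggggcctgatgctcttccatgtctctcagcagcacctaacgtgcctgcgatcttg

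The Cd53 stretch, chr3:106790150-106790399 on the minus strand, lies upstream of a tetraspanin of white blood cells. Its region, chr3:106790070-106790378, had a summit pileup of 55 fragments over a local background of 15.2, with −log10 q of 12.6. The summit lay 18 bases upstream of the start, and the marked RUNX letters lie outside the region. The nearest CBir1 peak, 1046 bp away, belonged to the divided library and reached 135 fragments. At Isg15, which encodes an interferon-induced ubiquitin-like protein, the stretch chr4:156200819-156201068 on the minus strand holds overlapping matches to the interferon regulatory factor letters. Its region had 44 fragments and −log10 q of 8.98, and a divided peak of 158 fragments stood 1929 bp away. Both genes thus had a taller CBir1 peak close by.

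At Ccdc39, Henmt1 and Hopx the nearest CBir1 peak was further away. Ccdc39 (chr3:33844311-33844560, minus strand), needed for the assembly of motile cilia, had 14 fragments with the nearest CBir1 peak 19231 bp away. Henmt1 (chr3:108940307-108940556, plus strand), which methylates small RNAs of the germ line, also had 14 fragments, with a CBir1 peak 21094 bp away. Both had −log10 q of 11.0. The RUNX letters marked at Ccdc39 and the SP and KLF letters marked at Henmt1 lie outside the open regions. Hopx (chr5:77115124-77115373, minus strand), an atypical homeodomain protein, had 12 fragments and −log10 q of 8.11, with a CBir1 peak 9430 bp away.

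The remaining starts printed are Myadm, Wnt3 and Ucp3. Myadm (chr7:3290305-3290554, plus strand), a membrane protein of the myeloid-associated differentiation marker family, had 17 fragments and −log10 q of 10.5, with a CBir1 peak 777 bp away. Wnt3 (chr11:103773925-103774174, plus strand), a secreted Wnt ligand, had 17 fragments and −log10 q of 8.70, with a CBir1 peak 1153 bp away. Ucp3 (chr7:100472741-100472990, plus strand), a mitochondrial carrier, had 12 fragments and −log10 q of 8.60, with a CBir1 peak 6691 bp away.

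Across the 109 windows over polyclonal-alone regions, the lymphoid ETS letters AGGAAG were present in 51.4% (42.1 to 60.6), beside 40.6% (34.7 to 46.7) of windows over divided-alone regions, 32.9% (23.4 to 44.1) over undivided-alone regions and 35.1% of all windows. Windows over regions open in both CBir1 fractions without polyclonal cells held them in 48.1% (39.0 to 57.5), with an interval that overlaps that of the members. The letters GGGCGG were in 45.9% (36.8 to 55.2), beside 66.9% (66.1 to 67.7) of windows over regions open in all 3 libraries and 36.0% of all windows. TGTGGT was found in 18.3% beside 16.7% of all windows, and GAAANNGAA in 9.17% beside 8.52%. More patterns were searched than are printed here, so those above are a selection. A second ETS pattern was in 15.6% (9.97 to 23.6) of the 109 windows, beside 15.1% of all windows. Letters for CTCF were in 11.0% (6.41 to 18.3) beside 5.05%, and letters for Gata factors in 2.75% (0.940 to 7.78) beside 11.2%. CTCF letters were in 7.09% (4.53 to 10.9) of divided-alone, 6.58% (2.84 to 14.5) of undivided-alone and 5.80% (5.39 to 6.23) of common windows. Gata letters were low there too, at 5.51%, 5.26% and 5.39%. Windows open in undivided and polyclonal cells held each in 12.3%. The lymphoid ETS letters were thus not the only ones to differ from all windows. A match describes letters and is no binding site. Letters were searched in the whole window, which can overlap its region by as little as 1 bp. A CpG content of at least 0.6 times that expected from base composition was met by 33.0% (24.9 to 42.3) of these windows, against 76.8% (76.0 to 77.5) of windows open in all 3 libraries and 36.4% of all windows. The first 2 intervals did not overlap. Windows over divided-alone regions stood between them, at 44.5% (38.5 to 50.6), as did windows over undivided-alone regions. Windows open in divided and polyclonal cells were also between, at 54.3% (47.3 to 61.0). Windows open in both CBir1 fractions without polyclonal cells stood close to the members, at 34.3% (26.0 to 43.6). Those open in undivided and polyclonal cells were lower, at 21.1% (12.5 to 33.3). A low CpG share was thus not particular to windows over members. The 109 windows belonged to 95 genes, and some windows of the same gene overlap each other. The intervals for windows count these as separate and are therefore too narrow.

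Most members were small, low peaks. Their median width was 224 bp, against 223 bp for undivided-alone, 251 bp for divided-alone and 781 bp for common regions, and 36.2% measured between 150 and 200 bp. The median summit pileup was 8 fragments (quartiles 7 and 11, highest 101), and the median −log10 q was 3.43 (quartiles 2.37 and 5.28, lowest 1.30, highest 46.8). Polyclonal peaks in regions shared with divided cells alone had a median pileup of 11, those shared with undivided cells alone 12, and those open in all 3 libraries 41 fragments. In their own libraries, divided-alone regions had a median pileup of 11 and undivided-alone regions 9 fragments. A −log10 q of at least 5 was reached by 1309 members, which is 2.34% of all merged regions, and a value of at least 10 by 222, which is 0.397%. Within their own lists, 48.2% (47.1 to 49.3) of divided-alone and 33.6% (32.0 to 35.1) of undivided-alone regions reached 5, beside 31.3% (30.0 to 32.8) of polyclonal-alone regions. The divided library, whose share was the highest, was also the deepest.

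**Figure D1:**
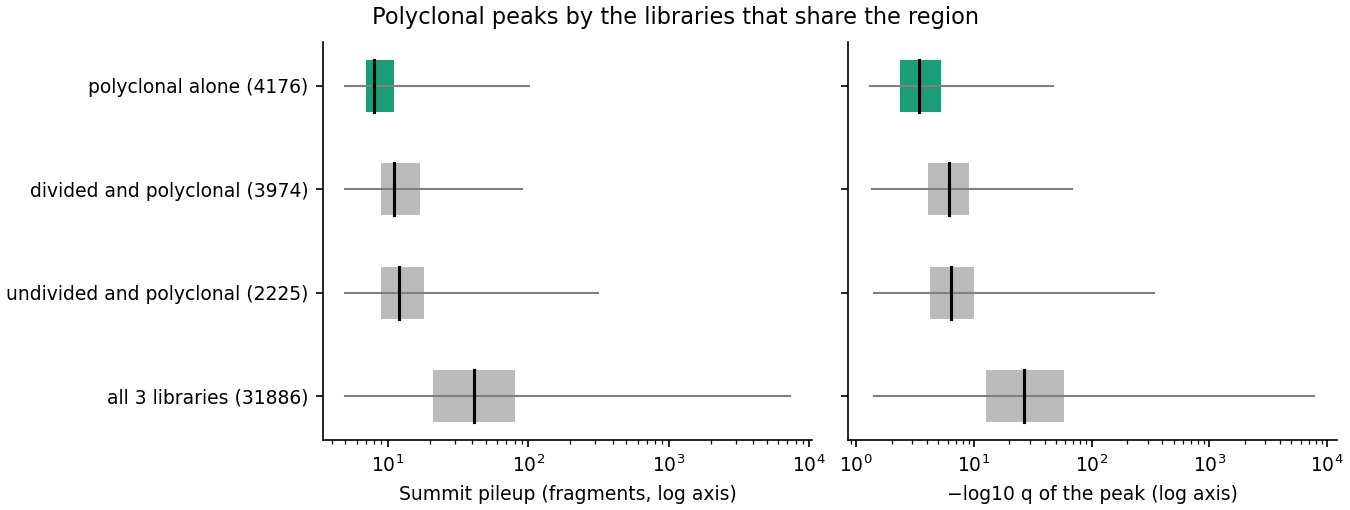
Polyclonal summit pileup in fragments (left) and −log10 q (right), both on log axes, for polyclonal peaks grouped by the libraries that share the region, with the number of regions in brackets. Boxes span the quartiles, the black line is the median and the grey line runs from lowest to highest; members have a median pileup of 8 fragments against 41 in regions open in all 3 libraries.

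How close the members stood to the calling limit was measured from the local background. Scaled by depth, the smallest pileup that would have been called at a member's background had a median of 6 fragments in the divided and 5 in the undivided library. All 4176 members would have passed in the divided library, an outcome fixed in advance by its greater depth. In both CBir1 libraries 3796 (90.9%) would have passed had the site been equally open there. The scaling takes each pileup as exact and assumes the polyclonal background in the CBir1 libraries. Around the T cell receptor beta members described below, CBir1 backgrounds were far higher. The median member of 8 fragments corresponds to 11.2 fragments at the depth of the divided and 7.47 at that of the undivided library. The 4 members just inside the threshold include regions inside Nfia, a nuclear factor I gene, and near Stxbp2, which acts in cytotoxic granule release. Each of these had 5 fragments and −log10 q of 1.30. The others, 80802 bp from Adamts20 and inside Foxn3, each had 6 fragments and −log10 q of 1.30.

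Just outside lay polyclonal peaks left out because a CBir1 peak barely passed. The region 63181 bp from Btg1, an anti-proliferative gene, had 26 fragments in polyclonal cells (−log10 q 9.35) and 11 in undivided cells (1.37). One beside Ccrl2, a chemerin-binding receptor, had 17 fragments (5.08) against 11 in undivided cells (1.48). A region in Rtkn had 11 fragments (5.05) against 5 in undivided cells (1.42), and one beside Wnt10a, a Wnt ligand, had 16 fragments (5.03) against 12 in divided cells (1.45). These peaks were taller than the median member.

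Members lay mainly inside and between genes. Of the 4176, 8.33% (7.53 to 9.21) lay within 1 kb of either end of a protein-coding gene, 53.2% inside a gene and 38.5% between genes. Divided-alone regions were near a gene end in 8.78% (8.18 to 9.42) and undivided-alone regions in 9.06% (8.16 to 10.1), while regions open in all 3 libraries were so in 33.1% (32.6 to 33.6). Among regions of 300 bp or less the shares were 8.21% (7.32 to 9.20) of members and 6.49% (4.89 to 8.58) of regions open in all 3 libraries. The gap to common regions was thus not seen among narrow regions. This limit kept 3252 of the members but only 693 of the 31886 regions open in all 3 libraries. Those 693 do not stand for the common regions, and widths were not matched one to one. Measured from the summit, the median distance to the nearest RefSeq start was 20262 bp for members, 19137 bp for divided-alone, 20875 bp for undivided-alone and 9513 bp for common regions.

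**Figure D2:**
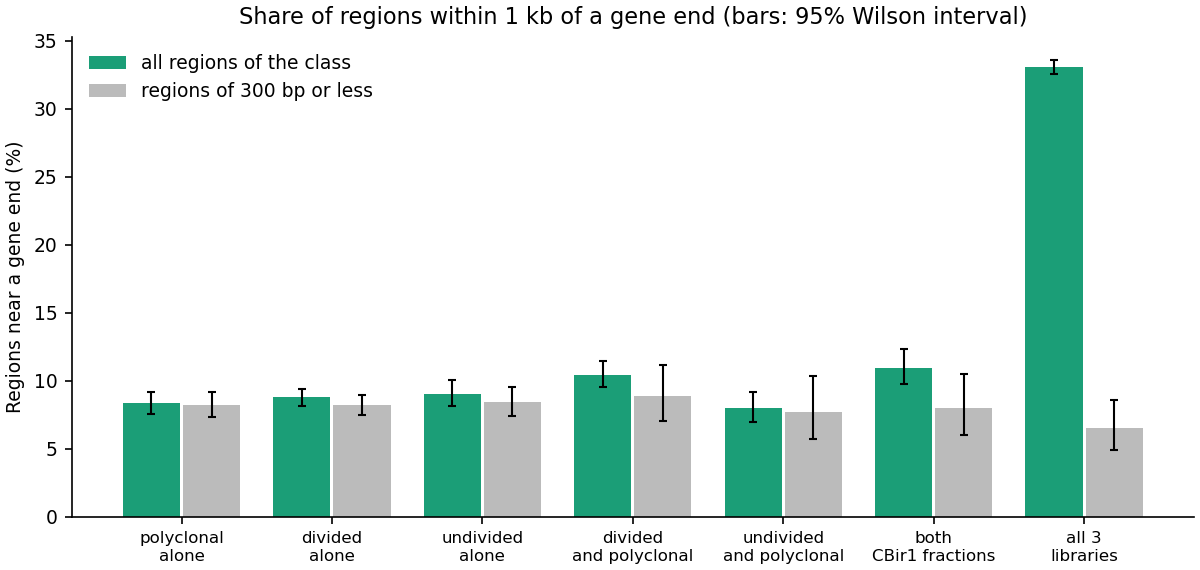
Share of regions within 1 kb of a protein-coding gene's first or last base, in percent, for each class of merged region, over all regions of the class and over those of 300 bp or less. Bars carry Wilson 95% intervals; members stood at 8.33% and regions open in all 3 libraries at 33.1%, but at 8.21% and 6.49% among narrow regions.

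The strongest member lay between Rell1, a relative of a TNF receptor family protein, and Pgm2, a phosphoglucomutase. The region chr5:64030506-64031216, 61486 bp from Rell1, had 68 fragments over a background of 5.43 (−log10 q 46.8), where 18 fragments would have sufficed in divided and 14 in undivided cells. The second strongest, chr5:64037926-64038454, lay beside it, 54465 bp from Pgm2, with 46 fragments and −log10 q of 33.2. Regions around them were open in the CBir1 cells but lower. The next region towards Rell1 had 20 fragments in divided cells, 17 in undivided cells and 50 in polyclonal cells. One further along, 47468 bp from Pgm2, had 34, 46 and 76 fragments in the same order. The lead of polyclonal cells did not reach the gene ends. The Rell1 end (chr5:63967733-63969453) had 170, 160 and 147 fragments and the Pgm2 end (chr5:64092661-64093702) 113, 71 and 72.

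Other strong members stood further from any CBir1 peak. The region chr1:108040901-108041491, whose nearest protein-coding gene was Serpinb8 at 431923 bp, had 36 fragments (−log10 q 29.0), and the nearest CBir1 peak was 367541 bp away. At 53019 bp from Frmd4a, a scaffold gene of cell polarity, chr2:3964479-3964631 had 28 fragments (27.0) with the nearest CBir1 peak at 38931 bp. Inside Palld, which encodes the actin-binding palladin, chr8:61562734-61563057 had 27 fragments (26.9), 7563 bp from a divided peak. Each of the 3 exceeded by more than 3 times the 7 to 10 fragments that the divided library would have needed.

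The remainder of the strongest set was of mixed kinds. A region inside St6galnac3, a sialyltransferase gene, and one near Glrp1, a glutamine repeat protein gene, each had 24 fragments (−log10 q 24.4) at the lowest background of the library. One 46575 bp from Nek7, a kinase required for the NLRP3 inflammasome, had 27 fragments (23.4), and one inside Tmem123, a transmembrane receptor gene, 42 fragments (23.0) with a divided peak of 69 fragments 3176 bp away. The start of Gm14322, a predicted gene, had 28 fragments (24.6). It lies among near-identical gene copies, where reads may be placed on the wrong copy, so its value is uncertain.

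Besides Gm14322 and Cd53, strong members near a gene end lay at Znrf1, Apol7e and Srf. At Znrf1, a ubiquitin ligase gene, chr8:111624760-111625389 had 44 fragments (−log10 q 18.5), and a divided peak of 41 fragments began 342 bp away. At Srf, the serum response factor, the region had 49 fragments over a background of 12.1 (13.0), beside a divided peak of 166 fragments at 2462 bp. Apol7e, an apolipoprotein L gene in a family of similar copies, had 35 fragments (16.8). At Znrf1, Srf and Cd53 the CBir1 cells thus had a peak of their own within 3 kb of the member.

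That closeness was common across the set. The nearest CBir1 peak lay within 500 bp of 14.5% of members, within 1 kb of 21.3% and within 5 kb of 47.8%, with a median of 5344 bp. Regions open in all 3 libraries that lay within 10 kb of a member leaned no more to polyclonal cells than those further away. Near members, their median log2 ratio of polyclonal to divided pileup was −0.25 (quartiles −0.51 and 0.00, 2877 regions), beside −0.25 in the 29006 further away. Against undivided cells the medians were 0.00 near and 0.02 far. These ratios are not scaled for depth, so they set near beside far and do not show which library leads.

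Some genes nonetheless carried members and little else, beside 7.35% of all regions within 100 kb of a protein-coding gene. They were picked for their members from 2904 genes that held any, so high shares follow in part from the choice. Slc7a11, the cystine and glutamate antiporter subunit, had 6 members among 7 regions. They formed an unbroken run over 138.5 kb (chr3:50304279-50442820) with pileups of 6 to 20 fragments, led by chr3:50381626-50381984 (−log10 q 17.6). Egfr, the epidermal growth factor receptor, had 6 members among 8 regions, 5 of them in a run of 101.7 kb with 6 to 17 fragments, the top at −log10 q of 14.8. No region of either gene was open in divided or in undivided cells alone, but few regions besides the members were left to be so.

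Emsy, a BRCA2-binding chromatin regulator, had 6 members among 8 regions. They were led by chr7:98562984-98563569, 23561 bp from the gene, with 26 fragments and −log10 q of 16.6. Zp3r, a sperm protein gene, had 5 among 7, with a top of 29 fragments (21.3) at 32173 bp from the gene. A run of 4 members stood over 30.3 kb near Optc, an extracellular matrix gene, with 12 to 23 fragments, all with −log10 q of at least 5.

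Long genes also ranked high by number alone. Foxn3, a forkhead repressor, had the most members, 8 among 36 regions, but none reached −log10 q of 5 (highest 4.37, with 22 fragments). Maml2, a Notch co-activator, had 7 among 45, Lpp, which encodes a focal adhesion protein, 7 among 44, and Akap13, a kinase-anchoring protein gene, 7 among 57. Each of these had 19 or more regions open in all 3 libraries except Foxn3, with 14. Dock9, a Cdc42 activator, had 6 among 19, led by 30 fragments with −log10 q of 16.5. In all, the 3899 members within 100 kb of a protein-coding gene fell on 2904 genes, 2228 of which held 1 member and 25 held 5 or more.

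**Figure D3:**
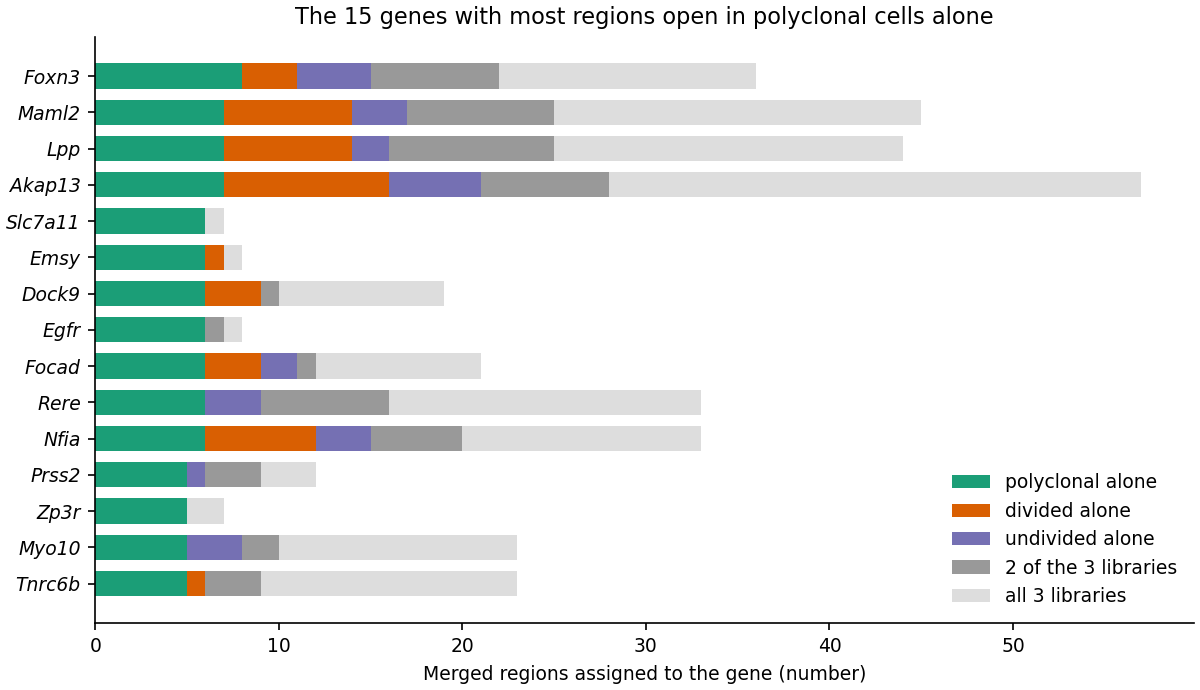
Number of merged regions assigned to each of the 15 genes with most members, split by the libraries in which the region was open. Slc7a11 (6 of 7 regions), Egfr and Emsy (6 of 8 each) and Zp3r (5 of 7) consist mostly of members, while Foxn3, Maml2, Lpp and Akap13 hold members among many shared regions.

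Some members lay close together. Within 10 kb of another member lay 13.0% (12.02 to 14.06) of members, while 22.0% (21.1 to 22.9) of divided-alone and 10.9% (9.91 to 11.98) of undivided-alone regions had a neighbour of their own class that close. Runs of at least 3 neighbouring regions of the same class held 3.11% (2.63 to 3.68) of members, in 39 runs, against 9.70% (9.07 to 10.4) of divided-alone regions in 237 runs and 2.50% (2.03 to 3.07) of undivided-alone regions in 27. The classes differ in number, which moves these shares. By chromosome, members made up between 6.78% of regions on chromosome 11 and 8.19% on chromosome 18.

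With members of any strength counted, genes of T cell programs held them at about the share of the genome. In 12 lists of such genes, 104 of 1645 regions were members (6.32%, 5.24 to 7.60), beside 7.35% of all regions within 100 kb of a protein-coding gene. In 9 lists of cell type markers, 29 of 421 were (6.89%, 4.84 to 9.72), and over all 21 lists together, which share some genes, 129 of 1986 (6.50%, 5.49 to 7.67). The Wilson interval of each of the 21 lists included 7.35%. No list is set apart by these counts. At −log10 q of at least 5 the share over all 21 lists was lower, 1.41% of regions beside 2.34% of all merged regions.

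Among regulatory T cell genes, 14 of 162 regions were members (8.64%, 5.22 to 13.98), spread over 9 genes. Ikzf2, which encodes the Treg-associated factor Helios, had 4 of 16 regions with pileups of 6 to 9 fragments and a highest −log10 q of 3.72, and no region open in divided cells alone. Icos, a co-stimulatory receptor of Treg and follicular helper cells, had 3 of 25 (highest 4.96), beside 5 open in divided cells alone. Entpd1, the ectonucleotidase CD39, had 1 member of 12 fragments (8.60). Follicular helper genes had 10 of 176 (5.68%), among them 1 at the cytokine receptor subunit gene Il6st with 15 fragments (6.83).

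Th1 genes had 10 of 114 (8.77%, 4.83 to 15.4) and 26 regions (22.8%) open in divided cells alone. With genes assigned within 20 kb, the member share of this list was 4.82%. Ifng, the defining Th1 cytokine, held 3 of 20 as members, at 27932, 41802 and 88107 bp from the gene, the highest with 11 fragments (−log10 q 7.46), against 10 open in divided cells alone. Bhlhe40, a factor that sustains cytokine output, held 2 of 7, at 29632 and 50484 bp from the gene. The nearer had 13 fragments (9.78), and no region of Bhlhe40 was open in divided cells alone. Th17 genes had 5 of 97 (5.15%) as members and 25 (25.8%) as divided-alone. Ccr6, the chemokine receptor of Th17 cells and some Treg cells, had 2 of its 4 regions as members, with 15 and 9 fragments (6.08 and 5.28). The nuclear receptor gene Rora had 2 of 33, both with −log10 q under 5. Th2 genes had 3 of 57 (5.26%), among them 1 lying 8368 bp from Il4ra (4.52) and 1 lying 86035 bp from Gata3 (4.26).

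Naive and quiescence genes had 25 members of 412 (6.07%, 4.14 to 8.80). Lef1, a factor of naive T cells, held 4 of 36, all with −log10 q of at least 5. The tallest, chr3:131153969-131154230, had 54 fragments over a background of 17.4 (9.90), and a divided peak of 110 fragments lay 2005 bp away. Bach2, a repressor that restrains effector differentiation, held 4 of 60 with 9 to 18 fragments, beside 12 open in divided cells alone. Of the activation genes, 9 of 166 regions (5.42%) were members, with 3 each at the calcium-responsive factor Nfatc1 and at Zeb2, a terminal-effector repressor, all with −log10 q under 5.

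T cell receptor signalling genes had 21 of 292 (7.19%, 4.75 to 10.7). Themis, needed for thymocyte selection, held 4 of 16, one with 13 fragments (9.78), and Rasgrp1, a Ras activator downstream of the receptor, 3 of 25 (highest 6.09). T cell identity genes had 5 of 142 (3.52%, 1.51 to 7.98), including chr9:45022785-45023216, 13122 bp from Cd3e, with 17 fragments (14.1), and a region 15677 bp from Cd6 with 25 fragments (8.10). Inhibitory receptor genes had 8 of 110 (7.27%), 2 of them at the ubiquitin ligase gene Cblb. Migration and gut homing genes had 9 of 107 (8.41%), with 2 at Itga4, a subunit of the gut-homing integrin. Cytotoxic genes had 1 of 43, at Gzmm, and cell cycle genes 0 of 25, which allows a share of up to 13.3% (Wilson).

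At marker genes of other cells the counts were small, and each interval included the 7.35% of all regions near genes. B cell genes had 4 of 35 (11.4%, 4.54 to 26.0). They were 2 inside or near Ebf1, the B lineage factor, with 12 and 9 fragments (−log10 q 8.60 and 3.56), and 2 in Fcer2a, the low-affinity IgE receptor, with 8 and 5 fragments. Neither Ebf1 nor Pax5 had a promoter peak in any library. Cd8b1, a CD8 subunit, had 3 of 7 regions as members with 9 to 11 fragments, while the Cd8a promoter was without a peak in all 3 libraries. Myeloid genes had 2 of 47, both in Itgam, whose promoter reached 22 fragments in polyclonal, 14 in undivided and none called in divided cells.

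Dendritic cell genes had 4 of 50, 3 of them in Tcf4, natural killer and innate lymphoid genes 4 of 42 (9.52%), including Zbtb16 and Il2rb, epithelial genes 1 of 17, at Vil1, stromal and endothelial genes 5 of 37 (13.5%, 5.91 to 28.0), including Pdgfra and Pdpn, and erythroid genes 0 of 4. CD8 genes, with 1 member 21143 bp from Eomes, had 4 of 47 (8.51%). The share of polyclonal signal that such cells contributed was not tested.

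**Figure D4:**
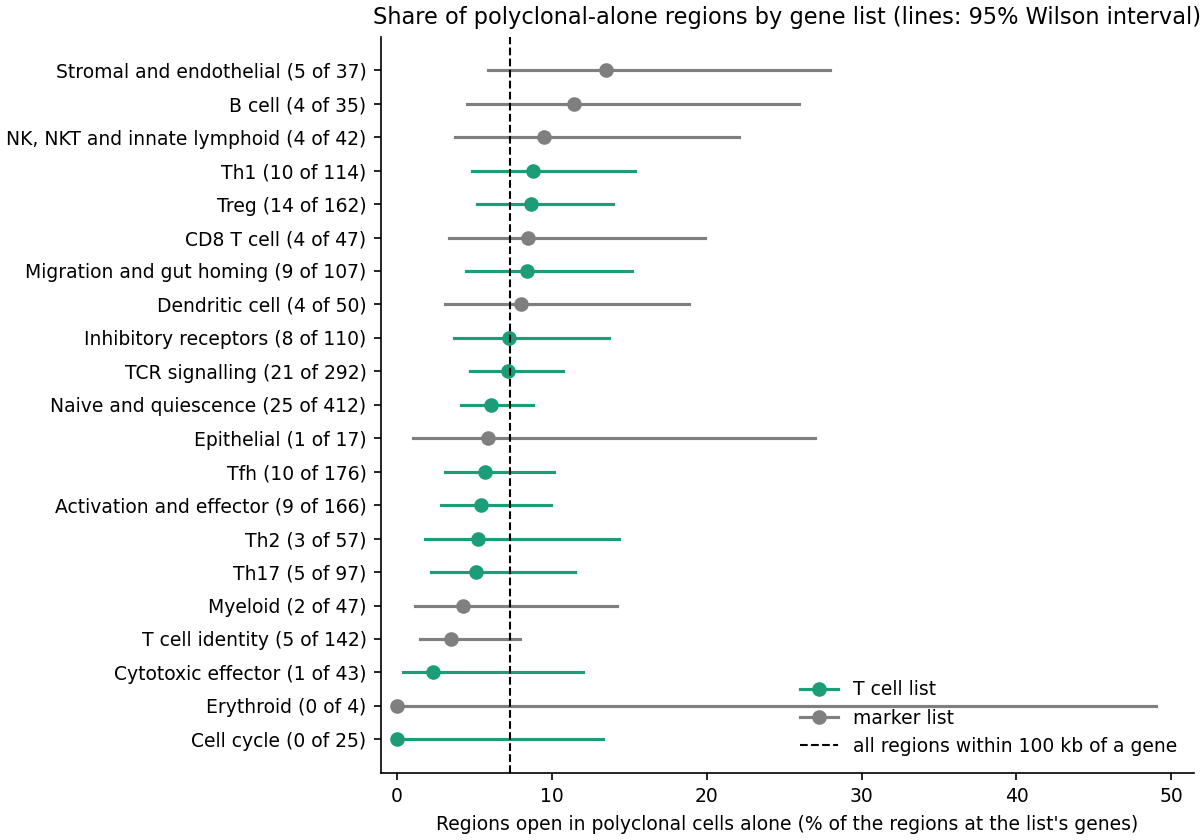
Share of merged regions at the genes of each list that were open in polyclonal cells alone, in percent, with Wilson 95% intervals and the counts in brackets. The dashed line is the share over all regions within 100 kb of a protein-coding gene (7.35%), and every interval drawn includes it.

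The receptor loci were looked at separately, since the transferred CBir1 cells carry a fixed transgenic receptor and polyclonal cells many rearrangements. Members made up 27 of 232 regions in the 3 loci (11.6%, 8.12 to 16.4), beside 7.46% of all merged regions. In the beta locus they were 10 of 44 (22.7%, 12.8 to 37.0), in the alpha-delta locus 17 of 181 (9.39%, 5.95 to 14.5) and in the gamma locus 0 of 7. The beta interval lay above the share of all regions, and the alpha-delta interval included it.

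In the beta locus, the member beside the diversity segment Trbd2 (chr6:41541613-41542114) had 57 fragments over a background of 10.3 (−log10 q 21.4). Another member (chr6:41558373-41558609) lay 2 bp beyond Trbv31, the V segment downstream of the constant genes. It falls just outside the limits of the locus and is not counted in the share above. Its pileup was the highest of the whole set, 101 fragments over a background of 24.9 (27.4). In the CBir1 libraries the same stretch was far more heavily covered. The CBir1 cells carry receptor transgenes whose copies were not measured here, so that extra copies of a stretch and more open chromatin cannot be told apart in these values. The region chr6:41543812-41545821 had 683 fragments in divided cells, 634 in undivided cells and 65 in polyclonal cells, over backgrounds of 75.7, 84.98 and 10.6. At chr6:41553117-41555204 the pileups were 1301, 1584 and 223 over backgrounds of 129, 160 and 27.7. A peak must be taller to be called over a higher background, so that here the absence of a CBir1 peak and a lower CBir1 signal cannot be told apart. Across the beta locus, the 17 regions open in all 3 libraries had median pileups of 73 in both CBir1 fractions and 37 in polyclonal cells.

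The alpha-delta locus showed no CBir1 excess of that size. Its 77 regions open in all 3 libraries had median pileups of 30, 36 and 35 in divided, undivided and polyclonal cells, over median backgrounds of 2.93, 3.22 and 3.88. Pileups in both loci are not scaled for depth, and the divided library was the deepest. The strongest member there, chr14:52848097-52848253, lay 3056 bp from Trav12d-1 and had 57 fragments (28.5), with a divided peak of 60 fragments 2916 bp away. Members overlapped Trav7n-5 with 14 fragments (10.4) and Trav3-3 with 13 (9.78), and members at Trav7d-4 and Trav6d-3 had 12 fragments each (8.60). The alpha V segments include duplicated families, in which reads may be placed on a similar copy, so the values at single segments are uncertain.

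**Figure D5:**
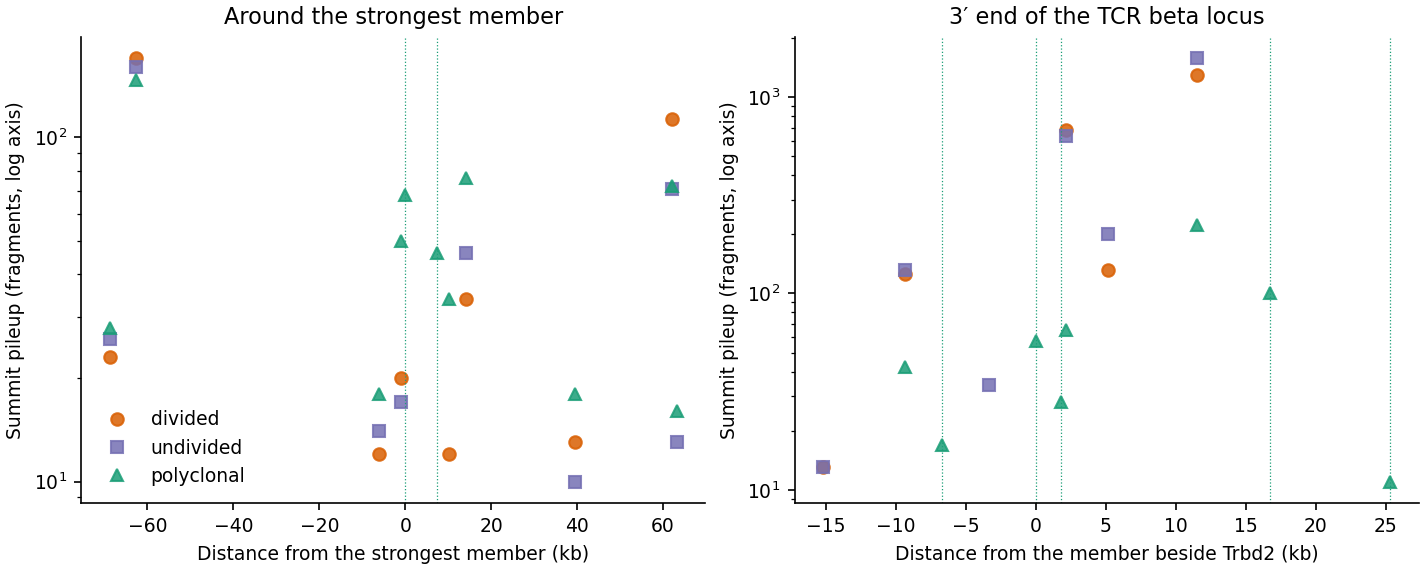
Summit pileup in fragments (log axis) of every called region in each library against distance in kb, around the strongest member (left) and along the 3′ end of the T cell receptor beta locus (right). Dotted lines mark members; around the strongest member polyclonal peaks are the tallest near 0, while in the beta locus the CBir1 peaks reach 1584 fragments and the polyclonal peaks 223.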

How the data were processed

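Open chromatin was measured by ATAC-seq in 3 fractions, with 1 library each. Per the submitters' processing notes the tools were bcl2fastq 2.17, cutadapt 1.12, Trimmomatic 0.33, Bowtie2 2.3.2, Picard, SAMtools and MACS2 2.1.0, with build mm10. The sources used here do not state how the 2 pools of a fraction entered its list or whether reads were shifted for the transposase. The deposited lists give each peak's score, its fold enrichment as a linear ratio, its −log10 p and −log10 q, which are the authors' own values and served only to rank, filter and describe peaks within their list. The deposited summit offset gives the summit position.

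Summit pileup and local background were recovered from the authors' fold, taken as (pileup + 1)/(background + 1), and −log10 p under a Poisson model, to a tolerance of 0.001, for over 99% of peaks in each list. This step was tested on simulated data. The sources used here do not state read totals, so depth was compared by the lowest background, which was 1.21 in divided, 0.808 in undivided and 0.865 fragments in polyclonal cells. The lowest called pileups were 6, 5 and 5 fragments. Peaks were merged at 1 bp of overlap, regions were given the closest protein-coding span of RefSeq GRCm38.p6 (21887 genes, no strand or exons) within 100 kb, and intervals are Wilson 95% intervals, which cover counting error only. Analyses used Python 3.11.15, numpy 2.4.6, pandas 2.3.3, scipy 1.17.1 and matplotlib 3.10.9.

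The members and gene lists were chosen with earlier results of these data known. Named members were the 12 of highest −log10 q, those of the 8 genes with most members, of the 2 genes with most members in each list, the 6 strongest near gene ends (1 of them is not reported here), the 6 strongest in T cell receptor loci, and 4 on either side of the threshold. Genes beyond these, such as Zp3r, Optc and the printed starts other than Cd53, were chosen after their values were seen. Start windows of chromosome 18 were not used here. The X chromosome, with Foxp3, lies outside the rule. The search of summit windows for motifs was not run because no genome sequence was used here.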

Additional observations from a re-analysis of the deposited data

How the results depend on the processing

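The 4176 members fell to 1309 when −log10 q had to reach 5 and to 222 at 10. Merging peaks within 500 bp (3516), asking a CBir1 peak to cover the larger part of the polyclonal peak (5687), depth scaling (3796) and adding X and Y (4302) kept the count within 1.5 times. The share near a gene end moved to 6.11% at −log10 q of 5, to 7.21% at 10 and to 15.2% with 2500 bp either side. At −log10 q of 5, 1.41% of regions at list genes and 4.74% of those in the T cell receptor loci were members, beside 2.34% of all regions, and 5.88% of the stronger members lay within 10 kb of another. The difference in median log2 ratio to divided pileup between common regions near and far from members was 0.0021, and 0.026 for members at −log10 q of 5; it reversed to −0.030 within 5 kb and to −0.021 against undivided cells. For members at −log10 q of 10 it was 0.083 against divided and 0.038 against undivided cells. The share of CpG-rich starts was 25.7% at −log10 q of 5. The neighbour comparisons, the narrow regions, the widened receptor loci (12.3%) and the runs (2.76% when merged within 500 bp) were chosen after seeing the data. Of the values by list, 24 stayed within the interval of the main value and 18 moved beyond it, 17 of them at −log10 q of 5, where the members are fewer by construction, and 1 (Th1, 4.82%) within 20 kb. No paired analysis was possible because each fraction has 1 library. The planned 100 bp summit window was not run.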

Other observations

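The windows named here were picked as the highest in member share among 1263 windows of 1 Mb with at least 15 regions, where 7.46% of all merged regions were members. On chromosome 14, 9 of 22 regions between 15 and 16 Mb were members (40.9%, 23.3 to 61.3), most of them beyond Lrrc3b. On chromosome 2, 9 of 22 between 14 and 15 Mb were members, across Hacd1, Tmem236, Mrc1, Cacnb2 and Nsun6, and only 1 region there was open in divided cells alone. On chromosome 14, 6 of 15 between 5 and 6 Mb were members, in a stretch of predicted genes with similar copies where placement of reads is uncertain. A member was present in 1439 of the 2103 windows that held any region.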
